A study of Mus musculus with 23 samples.

Results

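Expression of 10 peptide genes of the hypothalamus was followed over all 23 arrays of the study: Avp, Oxt, Crh, Trh, Sst, Ghrh, Gnrh1, Pmch, Hcrt and Gal. They were chosen by name, for each gene the probe set that names only that gene, and make up 10 of the 18702 genes measured. Each had 1 such probe set, so the choice between probe sets did not arise.

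The tissue was the hypothalamus of male db/db mice, whose mutation removes the signalling form of the leptin receptor and which become obese and diabetic. All animals were 8 weeks old, had been fed chow for 2 weeks and received intraperitoneal injections. The groups were celastrol, a plant triterpenoid, for 6 h (3 arrays), 1 day (4 arrays) or 4 days (4 arrays), and the vehicle DMSO for 6 h, 1 day or 4 days (4 arrays each). The labels give DMSO at 25 µl per day for the celastrol groups as well as for the vehicle groups. The labels give 250 µg/kg of celastrol at 6 h and no such dose for 1 day and 4 days; no lean or leptin-receptor-intact mice are among the 23 samples. Per the labels these are biological replicates, and p-values measure the spread between them. Feeding state, body weight and the hour of dissection are not given.

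Peptide neurons of the hypothalamus store their products in granules and release them into the blood, the portal vessels of the pituitary or distant brain regions. Avp (vasopressin) and Oxt (oxytocin) are made mainly by large neurons of the paraventricular and supraoptic nuclei that project to the posterior pituitary. Crh, Trh, Ghrh and Gnrh1 encode releasing hormones for the adrenal, thyroid, growth and gonadal axes, and Sst encodes somatostatin, which inhibits growth hormone release. Pmch (melanin-concentrating hormone) and Hcrt (the orexins) mark separate neurons of the lateral hypothalamus tied to sleep, arousal and feeding, and Gal (galanin) is made in several regions, among them sleep-promoting preoptic neurons.

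The promoters of 3 members are shown. Oxt was the one member called in a comparison of times as reported, near the threshold. Avp is the neighbour of Oxt on chromosome 2, and Sst had the smallest p in the celastrol comparison averaged over times. The windows run from 250 bases before to 50 after the gene's start, from RefSeq (GRCm38.p6), and 8 of the 10 members had 1 or more. Capitals mark TGACC on either strand, part of the half-site bound by nuclear receptors, in Oxt and Avp, and TGACGTCA, the cAMP response element, in Sst.
Oxt, chr2:130575919-130576218, plus strand: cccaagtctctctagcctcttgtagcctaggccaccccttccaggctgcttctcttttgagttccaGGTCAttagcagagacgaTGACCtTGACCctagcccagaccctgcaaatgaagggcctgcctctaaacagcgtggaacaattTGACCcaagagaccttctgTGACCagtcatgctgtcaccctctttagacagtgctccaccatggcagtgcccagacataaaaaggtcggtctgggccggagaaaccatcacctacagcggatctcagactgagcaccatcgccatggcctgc
Avp, chr2:130582539-130582838, minus strand: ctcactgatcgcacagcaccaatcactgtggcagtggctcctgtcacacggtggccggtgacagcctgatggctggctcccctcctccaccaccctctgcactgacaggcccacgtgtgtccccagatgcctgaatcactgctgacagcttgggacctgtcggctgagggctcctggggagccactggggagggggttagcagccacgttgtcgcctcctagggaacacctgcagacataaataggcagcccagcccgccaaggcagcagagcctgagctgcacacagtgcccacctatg
Sst, chr16:23890795-23891094, minus strand: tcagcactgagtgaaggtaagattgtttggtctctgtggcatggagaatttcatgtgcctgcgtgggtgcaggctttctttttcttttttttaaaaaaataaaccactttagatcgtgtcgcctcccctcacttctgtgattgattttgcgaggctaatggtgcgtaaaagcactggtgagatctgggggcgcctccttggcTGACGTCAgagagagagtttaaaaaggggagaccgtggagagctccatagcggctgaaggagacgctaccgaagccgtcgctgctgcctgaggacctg
The Oxt window held 5 TGACC matches, 1 of them on the minus strand, beginning at positions -184, -166, -160, -102 and -83 from the start. The Avp window held 0. Of all 32851 windows of this length, 40.5% held the motif and 0.0944% held it 5 or more times. The Sst window held 1 TGACGTCA match at position -48, as did 1.79% of all windows at least once. Neither motif overlapped another in these windows. These are matches of letters only.

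Values below are log2 expression as deposited, in which a difference of 1 is a doubling. They describe one gene across arrays, and levels of different genes cannot be ranked, since each has its own probes. In whole tissue, fewer cells of a type and less RNA per cell cannot be told apart. Array medians lay between 8.57 and 8.64, and arrays of one group correlated at 0.993 to 0.998 over 33 pairs. The 12 hypothalamus markers averaged 8.98 to 9.18 per array. On 4 vehicle arrays Prl was above 9, at 11.28 and 10.93 (6 h, replicates 2 and 4), 9.24 (1 day, replicate 1) and 10.37 (4 days, replicate 2). Prl encodes the pituitary hormone prolactin, and the mean of 10 pituitary markers ranged from 7.27 to 9.28 over the arrays. Pituitary signal was not confined to these vehicle arrays. Gh, the growth hormone gene, stood at 11.61 (6 h, replicate 3) and 10.79 (1 day, replicate 2) with celastrol, and at 9.73 or less on the other celastrol arrays. On replicate 1 of 1-day vehicle it stood at 11.56. Fits without the arrays with Prl above 9 kept all celastrol arrays.

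With celastrol, 0 of the 10 members passed the test against vehicle at 6 h, 1 day or 4 days, averaged over the times, or for an effect that differs between times (limma, p-values adjusted over all genes by Benjamini-Hochberg, threshold 0.05). The same tests called 0% of all genes at 6 h, 0.016% at 1 day, 0% at 4 days, 0% averaged and 0.0588% between times. At an unadjusted p under 0.05, 2763, 2338 and 1364 of all genes stood out at the 3 times and 2530 averaged; of the members, 1 did at 6 h, 0 at 1 day, 1 at 4 days and 2 averaged. Differences were positive for 8 members at 6 h, 6 at 1 day and 10 at 4 days, with medians of 0.045, 0.043 and 0.090. Over all genes the medians were 0.0072, 0.0086 and -0.00053, with 52.8% of genes positive at 6 h, 54.1% at 1 day and 49.7% at 4 days. Leaving out single arrays left at least 8 of the 10 positive at 4 days. The 10 signs come from the same arrays and do not count as separate results. This direction was also known beforehand from earlier results of these data. Over the 4-day groups, the pituitary marker mean was 7.64 ± 0.146 with celastrol and 8.17 ± 0.587 with vehicle (SD, n = 4 each; exact permutation test, 2-sided p = 0.0857, adjusted 0.539), and its part in the members' direction was not tested.

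**Figure D1:**
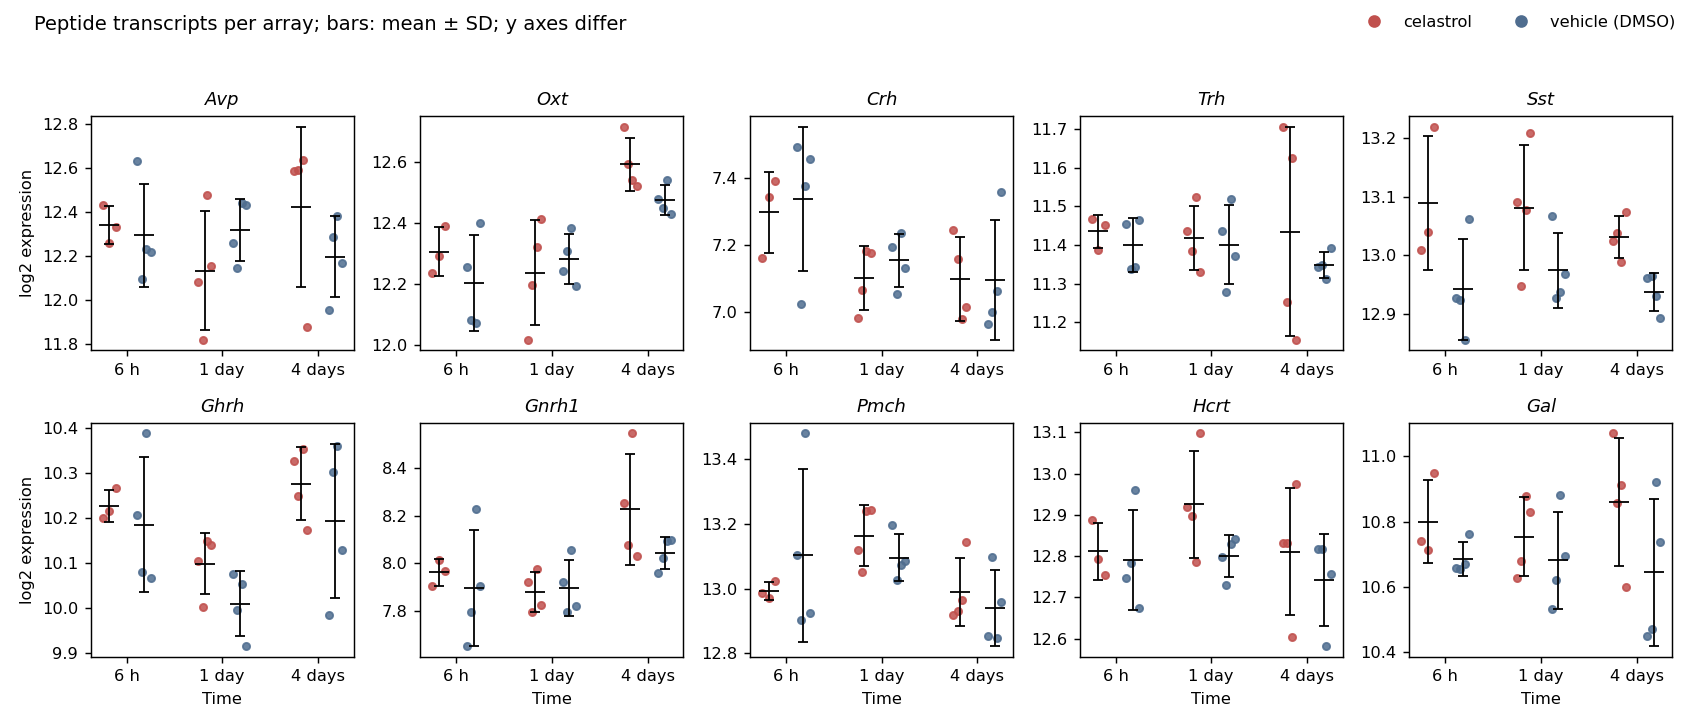
Log2 expression of each member on every array (dots) with the group mean and SD (bars), celastrol beside vehicle at each time; the y axes differ between genes. The 4-day arrays of Oxt stand above all earlier ones, and the lone low 4-day celastrol array of Avp lies at 11.88.

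Avp varied more between replicates than 99.2% of genes, with a within-group SD of 0.238. At 6 h it stood at 12.43, 12.26 and 12.33 with celastrol, against 12.63, 12.10, 12.23 and 12.22 with vehicle. At 1 day the values were 12.08, 11.82, 12.48 and 12.15 with celastrol and 12.26, 12.15, 12.44 and 12.43 with vehicle. At 4 days they were 12.59, 12.59, 12.64 and 11.88 with celastrol and 11.95, 12.29, 12.38 and 12.17 with vehicle, where 3 celastrol arrays stood above all vehicle arrays and replicate 4 below them. The differences of 0.05, -0.19 and 0.23 had adjusted p-values of 0.903, 0.641 and 0.814, and the interval at 4 days ran from -0.084 to 0.536.

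Oxt stood at 12.24, 12.29 and 12.39 with celastrol at 6 h, against 12.26, 12.08, 12.07 and 12.40 with vehicle. At 1 day it stood at 12.02, 12.20, 12.32 and 12.41 with celastrol and at 12.24, 12.31, 12.38 and 12.19 with vehicle. At 4 days it stood at 12.71, 12.59, 12.54 and 12.52 with celastrol and at 12.48, 12.45, 12.54 and 12.43 with vehicle. The groups overlapped at every time. The celastrol differences were 0.10, -0.04 and 0.12 (adjusted p = 0.553, 0.853 and 0.810).

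Among the genes that drive the pituitary, Sst had the narrowest spread, with an SD of 0.0771 (30.9% of genes were smaller). With celastrol it stood at 13.01, 13.04 and 13.22 at 6 h, 13.09, 12.95, 13.08 and 13.21 at 1 day and 13.02, 13.04, 12.99 and 13.07 at 4 days. With vehicle it stood at 12.93, 12.92, 12.86 and 13.06 at 6 h, 13.07, 12.93, 12.94 and 12.97 at 1 day and 12.96, 12.96, 12.93 and 12.89 at 4 days. At 4 days the lowest celastrol array exceeded the highest vehicle array, as for 1.87% of all genes, and the groups overlapped at 6 h and 1 day. The differences were 0.15 ± 0.0609, 0.11 ± 0.0563 and 0.09 ± 0.0563 (SE; adjusted p = 0.280, 0.448 and 0.776). Averaged over the times the difference was 0.12 ± 0.0334 (SE; 95% confidence interval 0.046 to 0.185, unadjusted p = 0.00222, limma adjusted p = 0.196). It stayed between 0.094 and 0.145 over the alternatives, with adjusted p-values of 0.0938 to 0.86. Per array, Sst correlated within groups at 0.563 with the choroid plexus marker mean and 0.561 with the blood and leukocyte mean. It correlated at 0.507 with the astrocyte mean, 0.487 with the striatum mean and 0.339 or less with the other marker lists. These values are a description over 23 arrays that share normalisation.

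Crh ranged from 6.964 to 7.495 over the 23 arrays, Trh from 11.15 to 11.70, Ghrh from 9.91 to 10.39 and Gnrh1 from 7.65 to 8.55. Their within-group SDs were 0.146, 0.131, 0.110 and 0.158, larger than those of 89.3%, 82.1%, 66.1% and 93.3% of genes. With celastrol, Crh averaged 7.30 ± 0.122 at 6 h (n = 3), 7.10 ± 0.0958 at 1 day and 7.10 ± 0.125 at 4 days, and with vehicle 7.34 ± 0.216, 7.15 ± 0.0805 and 7.10 ± 0.180 (SD, n = 4 each). With celastrol, Ghrh averaged 10.23 ± 0.035 at 6 h (n = 3), 10.10 ± 0.0669 at 1 day and 10.28 ± 0.0812 at 4 days, and with vehicle 10.19 ± 0.150, 10.01 ± 0.0716 and 10.19 ± 0.172 (SD, n = 4 each). Ghrh was lowest at 1 day with either treatment.

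Crh had celastrol differences of -0.04, -0.05 and 0.0022 at the 3 times and Trh of 0.04, 0.02 and 0.09. Ghrh had differences of 0.04, 0.09 and 0.08 and Gnrh1 of 0.06, -0.02 and 0.18. The lowest adjusted p among these 12 tests was 0.655 for Ghrh at 1 day, and all groups overlapped. Trh at 4 days split within the celastrol group, at 11.70, 11.25, 11.63 and 11.15, against 11.34, 11.35, 11.31 and 11.39 with vehicle. Gnrh1 at 4 days stood at 8.25, 8.07, 8.55 and 8.03 with celastrol and at 7.96, 8.02, 8.09 and 8.10 with vehicle, so that 2 celastrol arrays exceeded every vehicle array.

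Pmch ranged from 12.85 to 13.48 over the arrays, Hcrt from 12.58 to 13.10 and Gal from 10.45 to 11.07, with within-group SDs of 0.140, 0.113 and 0.157. With celastrol, Pmch averaged 12.99 ± 0.0277 at 6 h (n = 3), 13.16 ± 0.0946 at 1 day and 12.99 ± 0.106 at 4 days, and with vehicle 13.10 ± 0.268, 13.10 ± 0.0732 and 12.94 ± 0.117 (SD, n = 4 each). Replicate 3 of the 6-h vehicle group was the highest of its group at 13.48, and the others lay between 12.90 and 13.10.

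Of the arousal peptides, Pmch differed by -0.11, 0.07 and 0.05 and Hcrt by 0.02, 0.13 and 0.07 with celastrol, and all groups overlapped. Hcrt at 1 day stood at 12.92, 12.90, 12.79 and 13.10 with celastrol and at 12.80, 12.73, 12.83 and 12.84 with vehicle (adjusted p = 0.511). Gal at 4 days stood at 11.07, 10.86, 10.91 and 10.60 with celastrol and at 10.45, 10.47, 10.92 and 10.74 with vehicle. Its difference there was 0.22 ± 0.101 (SE; unadjusted p = 0.0445, adjusted p = 0.671), and averaged over the times it was 0.13 ± 0.0601 (SE; adjusted p = 0.340).

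**Figure D2:**
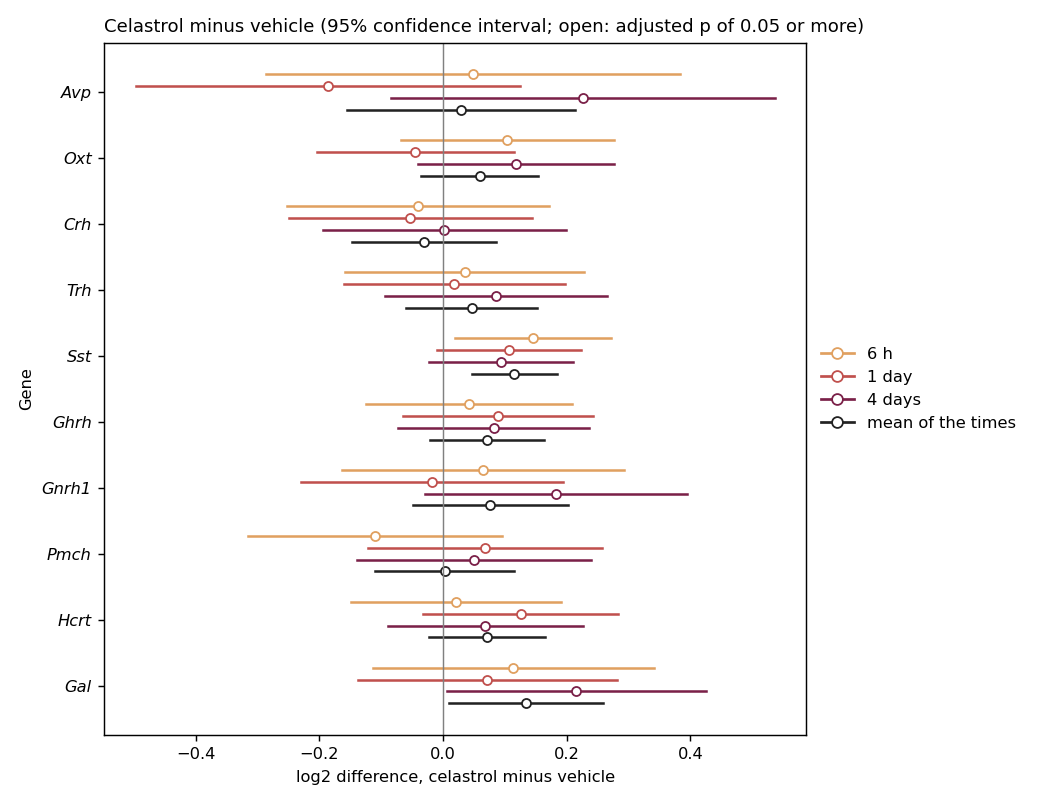
Log2 difference of celastrol minus vehicle for each member at 6 h, 1 day, 4 days and averaged over the times, with 95% confidence intervals (lines); open circles did not pass. All circles are open, and the intervals of Sst and Gal averaged over the times lie above 0.

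Between times, Oxt rose, and it was the only member called in any comparison of times. In vehicle mice it averaged 12.47 ± 0.0484 at 4 days and 12.20 ± 0.156 at 6 h (SD, n = 4 each), a rise of 0.27 ± 0.0768 (SE; 1.21-fold, limma adjusted p = 0.0485); 3.91% of all genes were called. In celastrol mice it averaged 12.59 ± 0.0869 at 4 days and 12.24 ± 0.171 at 1 day (SD, n = 4 each), a rise of 0.35 ± 0.0768 (SE; 1.28-fold, limma adjusted p = 0.0406), where 0.353% of all genes were called. The vehicle difference between 4 days and 1 day was 0.19 (adjusted p = 0.102; 11.8% called), and the celastrol difference between 4 days and 6 h was 0.29 (adjusted p = 0.139; 0.0749% called). In all 4 of these comparisons, every 4-day array stood above every earlier one, as for 6.6%, 6.8%, 13.2% and 8.89% of all genes in the order given.

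Over both treatments together, the 8 arrays at 4 days stood between 12.43 and 12.71, with a median of 12.53, and the 15 earlier arrays between 12.02 and 12.41, with a median of 12.26. This separation without overlap was found for 20 genes, 0.107% of all. Avp did not separate: its 4-day arrays lay between 11.88 and 12.64 and the earlier ones between 11.82 and 12.63. Choroid plexus markers averaged 7.43 to 7.65 at 4 days and 7.29 to 7.53 earlier, with medians of 7.52 and 7.39, and neuron markers 12.25 to 12.35 at 4 days and 12.27 to 12.37 earlier; their part in the Oxt difference was not tested.

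Both calls sat near the threshold. The vehicle call held in 5 of 23 fits that each left out 1 array (without replicate 4 of 6-h vehicle, replicate 1 or 4 of 1-day celastrol, or replicate 1 or 4 of 4-day celastrol), with differences of 0.23 to 0.34 and adjusted p-values of 0.018 to 0.162. The celastrol call held in 10 of 23 (without any 6-h array, replicate 2 or 3 of 4-day vehicle, or replicate 4 of 4-day celastrol), with differences of 0.28 to 0.41 and adjusted p-values of 0.028 to 0.121. The direction was the same in all of these fits. The tests over all 3 times did not pass for Oxt (F test, adjusted p = 0.0553 in vehicle mice, with 8.83% of genes called, and 0.0699 in celastrol mice, with 0.246% called).

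**Figure D3:**
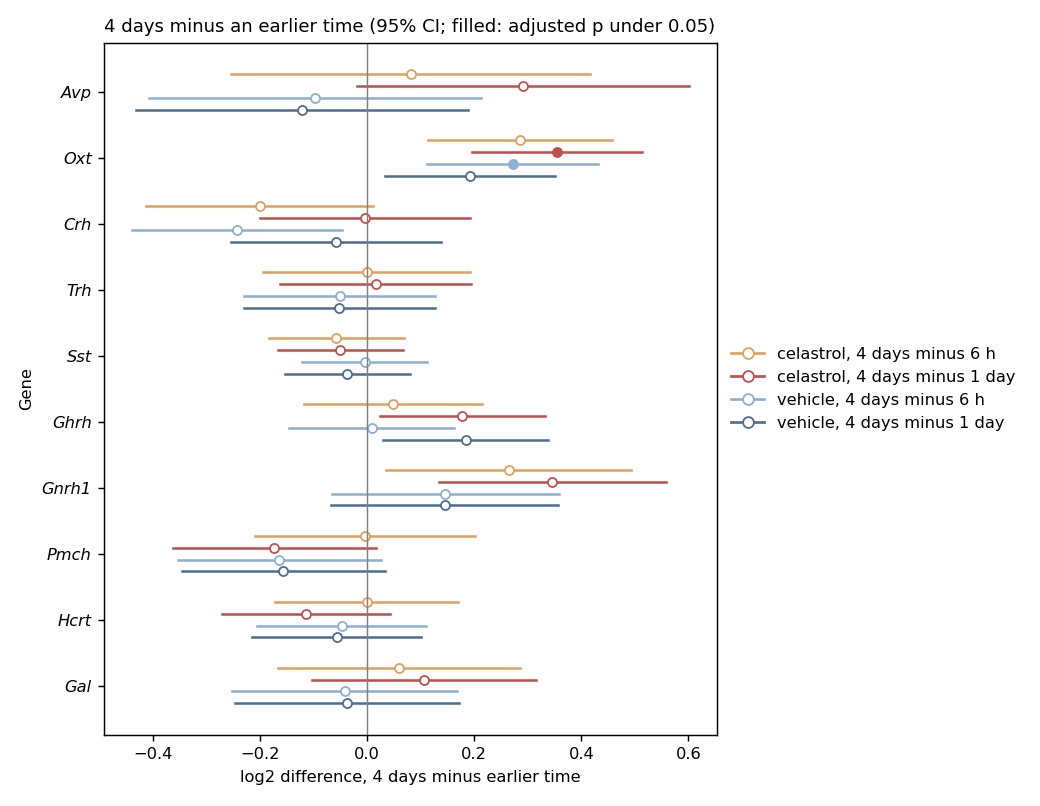
Log2 difference of 4 days minus 6 h or 1 day for each member in celastrol and in vehicle mice, with 95% confidence intervals (lines); filled circles passed at an adjusted p under 0.05. The filled circles are those of Oxt, 4 days minus 1 day with celastrol and 4 days minus 6 h with vehicle.

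The other members gave values that did not pass. Between 1 day and 6 h 0 of the 10 were called in celastrol mice (0.0321% of all genes) or in vehicle mice (0%), and without overlap Pmch was higher and Ghrh lower at 1 day in celastrol mice (0.17 and -0.13, as for 5.07% and 6.4% of all genes; adjusted p = 0.593 and 0.624). Gnrh1 in celastrol mice stood at 8.25, 8.07, 8.55 and 8.03 at 4 days and at 7.92, 7.80, 7.97 and 7.83 at 1 day. The difference was 0.35 (adjusted p = 0.119) with no overlap, as for 6.8% of all genes. The same gene in vehicle mice differed by 0.14 between those times (adjusted p = 0.363). Ghrh differed between 4 days and 1 day by 0.18 in celastrol mice (adjusted p = 0.261, no overlap, as for the same 6.8%) and by 0.18 in vehicle mice (adjusted p = 0.105, overlapping). Crh in vehicle mice stood at 6.964, 6.999, 7.063 and 7.359 at 4 days and at 7.50, 7.02, 7.38 and 7.46 at 6 h, a difference of -0.24 (adjusted p = 0.128). Without the low 6-h replicate 2 it was -0.35 and passed (adjusted p = 0.0264). Crh had the lowest mean signal of the members, 7.18 over the 23 arrays and below every array median. The fit with the filter on the lowest tercile of genes left it out. Pmch in vehicle mice differed by -0.16 between 4 days and 6 h (adjusted p = 0.275), and by -0.41 (adjusted p = 0.0216) without the arrays with Prl above 9, which left 2 arrays at 6 h. One of these is replicate 3, the highest of its group at 13.48. Without that replicate alone, the Pmch difference was -0.04 (adjusted p = 0.822). Trh, Sst, Hcrt, Avp and Gal had adjusted p-values of 0.368 or more in every pairwise comparison of times.

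From one array to the next within groups, 1 of 45 member pairs passed by Pearson's r and no pair passed by Spearman's rho. The share among pairs of all genes was not computed, so the count is a description of the members only. Oxt and Gal correlated at Pearson's r = 0.573 (permutation p = 0.00052, adjusted p = 0.0234 over 45 pairs) and Spearman's rho = 0.551 (permutation p = 0.00542, adjusted p = 0.0821) over 23 arrays, after subtraction of group means. Without the 2 arrays farthest from the median of Oxt, r was 0.568. Within vehicle arrays alone r was 0.399 (adjusted permutation p = 0.499) and within celastrol arrays alone 0.748 (adjusted permutation p = 0.121). The call was lost in 8 of 23 fits without 1 array. It passed in 0 of the 6 other settings, the vehicle and the celastrol arrays alone among them. Avp and Gal (r = 0.5998), Avp and Trh (0.587), Ghrh and Gnrh1 (0.579) and Oxt and Crh (0.542) had adjusted permutation p-values of 0.116 to 0.131. Pmch and Hcrt, in neighbouring cells, had r = 0.526 (rho = 0.457, adjusted permutation p = 0.170), and Avp and Oxt, in the same nuclei, had r = 0.311 (rho = 0.305, adjusted permutation p = 0.467). All values share the tissue piece and its dissection.

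**Figure D4:**
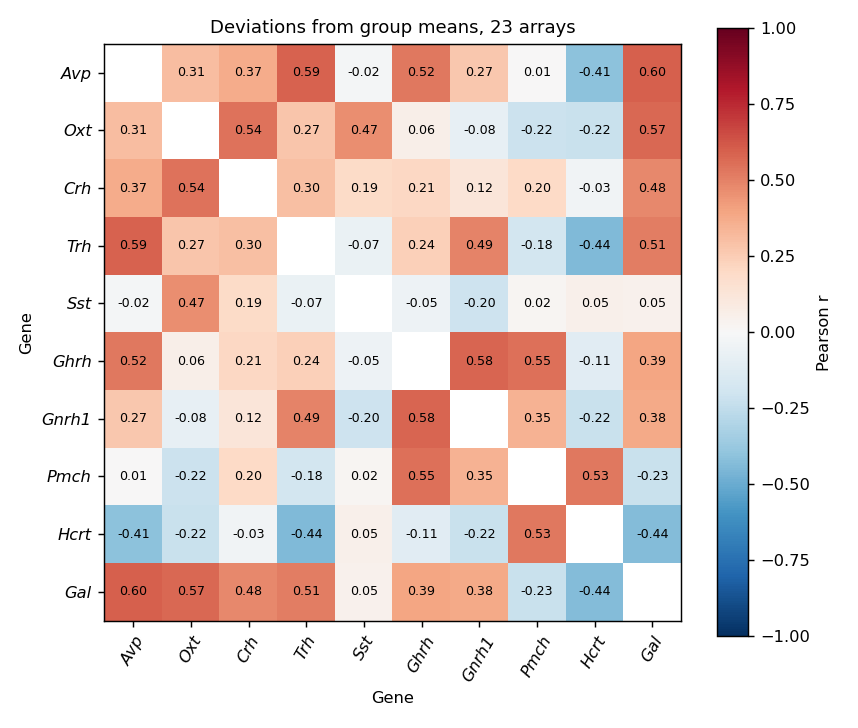
Pearson's r of each pair of members over 23 arrays after subtraction of group means; red is positive and blue negative. Oxt and Gal, at 0.573, is the pair whose r passed.

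Genes whose deviations most resembled those of a member were taken as the 3 with the highest within-group Pearson's r over the 23 arrays, out of all genes measured. For Avp these were Glp1r, the GLP-1 receptor gene (0.909), Kdelr1 (0.844) and Rnf2 (0.835). For Oxt they were Lzts1 (0.820), the inducible heat shock gene Hspa1a (0.765) and the angiotensin receptor gene Agtr1a (0.757). For Sst they were the mineralocorticoid receptor gene Nr3c2 (0.741), 4930577N17Rik (0.728) and Ccpg1 (0.726). For Crh the values were 0.795 (Pip5k1b), 0.792 (Krit1) and 0.776 (Lin9), and for Trh 0.790 (Olfr1465), 0.774 (Rad23b) and 0.728 (Zbed3). For Ghrh they were 0.859 (Ube2d2a), 0.829 (Rpl37a) and 0.825 (E230001N04Rik), and for Gnrh1 0.853 (Cd274), 0.778 (Selenoh) and 0.767 (Mvb12a). For Pmch they were 0.882 (Eif4a2), 0.881 (Rps14) and 0.862 (Cox7a2), for Hcrt 0.875 (Ap3m2), 0.859 (Nlrp2) and 0.773 (Cabp1), and for Gal 0.828 (Brf2), 0.816 (Dbr1) and 0.797 (Ensa). Each is the extreme of 18702 genes and is given as a description.

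The receptors of these peptides, 22 of 22 measured, had 0 members past the threshold in any celastrol comparison. At 1 day 18 of 22 were higher with celastrol, with a median of 0.095. Over all genes 54.1% were higher and the median was 0.0086. On the same arrays the 12 hypothalamus markers averaged 9.096 ± 0.0295 with celastrol and 9.002 ± 0.0201 with vehicle (SD, n = 4 each; exact permutation test, 2-sided p = 0.0286, the smallest possible; adjusted p = 0.314). The spread over genes within an array was 1.92 ± 0.0115 with celastrol and 1.95 ± 0.012 with vehicle (exact p = 0.0286, adjusted p = 0.314), and the part of both in the receptor values was not tested. Avpr1b, the vasopressin receptor of pituitary corticotropes, differed by 0.34, -0.05 and -0.24 with celastrol at the 3 times (adjusted p = 0.108 for a difference between times). Hcrtr2, an orexin receptor, differed by -0.26 at 6 h (adjusted p = 0.185), and Ghrhr, the growth hormone releasing hormone receptor, had an adjusted p of 0.131 between times.

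Between times, the receptor calls were few. In vehicle mice 3 of 22 receptors passed at 4 days against 1 day, where 11.8% of all genes did, and 1 of 22 at 4 days against 6 h, where 3.91% did. In celastrol mice 1 of 22 passed at 4 days against 6 h, where 0.0749% of all genes did. In vehicle mice, Trhr2 rose by 0.27 (adjusted p = 0.0198), Ghrhr by 0.26 (adjusted p = 0.0134) and the galanin receptor gene Galr2 by 0.27 (adjusted p = 0.0343) at 4 days against 1 day. Hcrtr2 fell by 0.27 in vehicle mice at 4 days against 6 h (adjusted p = 0.0442), and it shares the 6-h vehicle arrays with its celastrol value above. Avpr1b fell by 0.51 in celastrol mice at 4 days against 6 h, averaging 6.86 and 7.37 (adjusted p = 0.0325). Over all 3 times, Trhr2 (F test, adjusted p = 0.0457) and Ghrhr (adjusted p = 0.0316) passed in vehicle mice and Avpr1b in celastrol mice (adjusted p = 0.0454), where 8.83% and 0.246% of all genes passed. With each array left out in turn, these F tests passed in 10 of 23 fits for Trhr2, 17 for Ghrhr and 9 for Avpr1b, and under the other settings in 4 of 10, 6 of 10 and 4 of 9. Ghrhr is itself one of the pituitary markers, whose mean was 8.17 ± 0.587 at 4 days and 7.67 ± 0.551 at 1 day in vehicle mice (SD, n = 4 each). For the groups of the Avpr1b fall it was 7.64 ± 0.146 (n = 4) at 4 days and 8.20 ± 0.308 (n = 3) at 6 h. The covariate fits used a shorter pituitary mean, of Prl, Gh, Cga, Tshb, Lhb and Fshb, without Pomc, Pitx1, Tbx19 or Ghrhr. With that shorter mean as a covariate the Avpr1b difference was -0.52 (limma adjusted p = 0.0529). The SD over genes within an array was 1.89 to 1.91 in vehicle mice at 4 days and 1.93 to 1.96 at 1 day. With it as a covariate, 0 genes passed between those groups, against 2203 without it, and the differences were 0.08 for Trhr2, 0.11 for Ghrhr and 0.04 for Galr2. The Galr2 call was also lost without any 1 of replicates 2 to 4 of 1-day vehicle or of the 4-day vehicle replicates, the Trhr2 call without replicate 4 of 1-day or 2 of 4-day vehicle, and the Ghrhr call at 4 days against 1 day in none of the 23 fits. The Avpr1b call was lost without replicate 1 or 2 of 6-h celastrol, replicates 1, 2 or 3 of 4-day celastrol, or replicate 2 of 1-day celastrol or vehicle (highest adjusted p = 0.223). The Hcrtr2 call passed in 10 of 23 such fits, and was lost without replicate 1, 2 or 3 of 6-h or of 4-day vehicle, any 1-day vehicle array, replicate 1 of 6-h celastrol, or replicate 1 or 2 of 1-day celastrol. With the spread covariate the Hcrtr2 difference was -0.15 and did not pass.

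Of the related and neighbouring peptide genes, 22 of 22 measured, 0 passed in a celastrol comparison. At 1 day 18 were higher, with a median of 0.098, against 54.1% of all genes and a median of 0.0086. At 4 days 12 of 22 were higher, against 49.7% of all genes. The hypothalamus marker mean and the array spread of the 1-day arrays are given above, and their part in these values was not tested. Qrfp, an RFamide peptide gene (0.23, adjusted p = 0.191), and Kiss1, the kisspeptin gene (0.20, adjusted p = 0.234), both at 1 day, were among those with the smallest p. Galp, a galanin-like peptide gene, had an adjusted p of 0.179 between times. In vehicle mice 5 of 22 passed at 4 days against 1 day, where 11.8% of all genes did, and 1 of 22 at 4 days against 6 h, where 3.91% did. At 4 days against 1 day, Galp rose by 0.30 (adjusted p = 0.00973), Cort, the cortistatin gene, by 0.28 (adjusted p = 0.0212), Qrfp by 0.24 (adjusted p = 0.0204) and Prlh by 0.23 (adjusted p = 0.0481). Adcyap1, the PACAP gene, fell by 0.18 there (adjusted p = 0.0265) and by 0.27 at 4 days against 6 h, averaging 10.98 and 11.26 (adjusted p = 0.00878). The fall of Adcyap1 at 4 days against 6 h passed in all 23 fits without 1 array. At 4 days against 1 day, the Galp call did so too, Prlh passed in 8 of 23, and the calls of Cort, Qrfp and Adcyap1 were lost without replicate 1 of 4-day vehicle, Adcyap1 also without its replicate 3; of 1-day vehicle, replicate 2 ended those of Cort and Adcyap1, 3 that of Adcyap1 and 4 that of Qrfp. With the spread covariate the differences at 4 days against 1 day were -0.0039 for Prlh, 0.04 for Qrfp, 0.05 for Cort, 0.22 for Galp and -0.08 for Adcyap1, and none passed. After quantile normalisation the difference of Galp was 0.17 and did not pass. The fit with the filter on the lowest tercile of genes left out Galp for its low signal, and also Galr2 and Avpr1b. The fall of Adcyap1 at 4 days against 6 h was -0.21 with the spread covariate and did not pass (adjusted p = 0.161). In celastrol mice the 4-day differences of these 5 genes did not pass; the difference between treatments was tested as the celastrol effect between times, and 0 of the list passed.

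Of 18 measured genes of peptide processing and the secretory granule (20 listed), 0 passed with celastrol. In vehicle mice 1 of 18 passed at 4 days against 1 day, where 11.8% of all genes did. This was the carboxypeptidase gene Prcp, which fell by 0.18 (limma adjusted p = 0.0354). The call was lost without any 1-day vehicle array or replicate 1 or 4 of 4-day vehicle. With the spread covariate the Prcp difference was -0.08 and did not pass, and the call was lost in 2 of 10 such settings. With celastrol it differed by -0.13 at 1 day (adjusted p = 0.362). Qpct, the enzyme that converts the N-terminal glutamine of peptides such as TRH to pyroglutamate, differed by 0.15 at 4 days (adjusted p = 0.644), and Cadps2 had an adjusted p of 0.359 between times. Of 22 transcription factors of the peptide neurons, 0 passed in any of the comparisons, where 0% to 11.8% of all genes passed. Hmx3 (0.25, adjusted p = 0.196) and Zic1 (-0.27, adjusted p = 0.275) at 1 day and Hmx2 between times (adjusted p = 0.176) had the smallest p; Hmx2 and Hmx3 are also among the hypothalamus markers.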

How the data were processed

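Expression was measured on whole-transcript arrays in 23 hypothalamus samples, and groups came from the labels. The authors deposited log2 values per probe set made with RMA, per the submitters' processing notes; neither the software version nor any filter is named there. No further normalisation was applied. The 23492 probe sets comprised 20228 for 1 gene (20184 with a current symbol), 1399 for several and 1865 for none; those naming 1 gene were used, with the highest mean for the 811 genes with more than 1, leaving 18702 genes with no filter on level.

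A model of 6 group means was fitted with limma 3.58.1 in R 4.3.3 (17 residual and 5.424 prior degrees of freedom) with Benjamini-Hochberg adjustment over all genes at 0.05. Correlations used 100000 permutations within groups, and marker means per array exact permutation tests (Python 3.11.15, scipy 1.17.1). Scripts were tested on simulated data. The number of arrays limits precision. Members, lists, tests and alternatives were chosen with earlier results of these data known, and the earlier account already showed hypothalamic neuropeptide lists higher with celastrol at 4 days, so that direction is not independent.

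Named were all members, the 3 genes most like each, and of each list the genes past the threshold or the 3 with the smallest p in a celastrol comparison. The replicate numbers of the labels were checked for pairing. Alternatives were a robust variance trend, a filter on the lowest tercile, quantile normalisation, median centring, the replicate block, array weights, another probe set rule and only the groups compared. Further ones were a covariate, either the mean of Prl, Gh, Cga, Tshb, Lhb and Fshb or the array spread. The last were leaving out the arrays with Prl above 9, all of them vehicle, and each array left out in turn.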

Additional observations from a re-analysis of the deposited data

Results flagged for a closer look

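Avp in replicate 4 of the 4-day celastrol group stood at 11.88, against 12.59, 12.59 and 12.64 on the other arrays of that group, a gap larger than Dixon's limit for 4 arrays. Gal in replicate 4 of the 6-h vehicle group stood at 10.76, against 10.66, 10.66 and 10.67 on the others, and that array was 1 of the 4 with Prl above 9. Replicate 2 of the same group had the highest Prl, at 11.28, and Gal at 10.66, and a link was not tested. Of 50 groups of 4 arrays tested over the members, the Avp and Gal values above were the 2 found, where chance marks about 5%.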

How the results depend on the processing

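In the celastrol comparisons 0 members passed in all 168 counts over comparisons and settings. Of 3320 member values by setting, 148 had another sign than reported, over 44 of 100 results and none of them called. The count for 4 days against 6 h in vehicle mice was 1, for Oxt; it was 0 with the replicate block (adjusted p = 0.0593), array weights (0.106) or the array spread (0.146), 2 without the arrays with Prl above 9 (Oxt and Pmch), and 0 to 1 with single arrays left out. The count for 4 days against 1 day in celastrol mice was 1, for Oxt; it was 0 with median centring (0.0511), the replicate block (0.0665), the pituitary covariate (0.0514) or without the Prl arrays (0.0531), and 0 to 1 with single arrays left out. The count for vehicle over all times was 0, and 1 with the variance trend, the tercile filter, quantile normalisation or without the Prl arrays; for celastrol over all times it was 0, and 1 with the tercile filter. With array weights 1 member, Ghrh, passed at 4 days against 1 day in vehicle mice, where 0 did. These 3 counts were 0 to 1 with single arrays left out. Correlated pairs numbered 1, and 0 in vehicle or celastrol arrays alone, without the Prl arrays, after quantile normalisation or with the replicate block, and 0 to 3 with single arrays left out. Prlh at 4 days against 1 day in vehicle mice reversed to -0.0039 with the array spread as a covariate. The cause of these changes was not tested.

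No clear pairing by replicate number was seen. Arrays with the same number correlated at a median of -0.00736 over 55 pairs, against 0.00188 over 165 pairs with different numbers. Of 23 arrays, 5 correlated best with their own number. These are descriptions without a chance expectation, and a shared litter, batch or day was not tested. Over all genes, the calls ranged widely with the settings: at 6 h 0 to 16 (0 as reported), at 1 day 0 to 406 (3), at 4 days 0 to 39 (0), averaged 0 to 9 (0) and between times 0 to 118 (11). Over the times they ranged from 2 to 2491 in vehicle mice (1651) and 0 to 200 in celastrol mice (46). Between 2 times in vehicle mice they ranged from 0 to 10 for 1 day against 6 h (0), 0 to 3626 for 4 days against 1 day (2203) and 13 to 1513 for 4 days against 6 h (732). In celastrol mice these ranges were 0 to 20 (6), 3 to 200 (66) and 0 to 78 (14). The number of arrays limits what can be seen: the 95% interval of the median gene reached 0.146 to either side at 6 h and 0.136 later.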
